A study of Mus musculus with 7 samples.

Results

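The skeletal muscle troponin and myosin light chain genes were examined as 5 slow members and 5 fast members, 10 of the 44818 features (genes and unmatched transcripts) measured. They were taken by gene symbol. The slow members were Tnnc1, Tnni1, Tnnt1, Myl2 and Myl3, and the fast members were Tnnc2, Tnni2, Tnnt3, Mylpf and Myl1. All 10 passed the filter on low counts, and their transcripts made up 87 of the 103639 listed. Groups were compared with edgeR (quasi-likelihood test, all 7 libraries in 1 fit), with Benjamini-Hochberg adjustment over 16028 features tested.

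RNA came from hindlimb tendon of mice with a C57BL/6 background. Injured mice were burned on the back, over 30% of the body surface, by contact with a 60 °C aluminium block for 18 s. In the same session 1 Achilles tendon was cut through (tenotomy). The tenotomy group (2 libraries) was the cut site of the left leg 3 weeks later, and the contralateral group (3 libraries) was the uncut right leg of such mice at the same time, so that both groups carried the burn. The uninjured group (2 libraries) was tendon from wild-type mice with neither burn nor tenotomy. Protocols describe the excised tissue as reaching from the gastrocnemius end of the tendon to the heel bone. The labels give no age, animal number or pooling, so p-values measure only the spread between these samples, which may be technical.

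Striated muscle shortens when myosin of the thick filament pulls on actin of the thin filament. Troponin sits on the thin filament as a complex in which troponin C binds calcium, troponin I holds the filament off until calcium arrives, and troponin T ties the complex to tropomyosin. Each myosin head carries a regulatory and an essential light chain on its lever arm. Slow-twitch and fast-twitch fibres build these parts from different genes, and several of the slow genes are also used in the heart.

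Library totals ran from 25927171 to 36725106 estimated counts, of which the 5 most abundant features, among them the mitochondrial ribosomal RNA gene mt-Rnr2, took 76.4% to 81.4%. The members made up 0.971% to 1.18% of the remaining counts in the contralateral libraries and 0.140% and 0.142% in the tenotomy libraries. The 2 uninjured libraries lay far apart, with 0.183% in uninjured 1 and 0.976% in uninjured 2. Uninjured 2 exceeded uninjured 1 by 3.98-fold to 8.69-fold in every member. Fold changes of the members against the uninjured group are therefore given with and without each of its libraries. Pair ratios, list medians and group means for this group rest on both libraries together. Sample numbers in the titles fell in 3 ranges, with the contralateral libraries and tenotomy 1 in the first, tenotomy 2 and uninjured 1 in the second, and uninjured 2 alone in the third. What these ranges stand for is not labelled.

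Troponin T of fast muscle, Tnnt3, reads out alternative exons, and the transcript shares described further on turn on 3 of them. Its 2 mutually exclusive exons of 41 bases lie at chr7:142513665-142513705 and chr7:142514326-142514366 (GRCm38, plus strand), and they are shown because a transcript holds 1 of them or neither. Capitals mark the 18 positions at which both carry the same base, 43.9% of the exon.
Tnnt3 upstream exclusive exon: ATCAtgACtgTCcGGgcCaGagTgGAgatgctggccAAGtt
Tnnt3 downstream exclusive exon: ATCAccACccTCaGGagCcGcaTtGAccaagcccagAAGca
The third is an optional 15-base exon nearer the 5′ end of the gene at chr7:142505516-142505530, present in 13 of the 23 coding transcripts.
Tnnt3 15-base exon: aggaagtccaagaag
All 3 were read from GENCODE M21 transcript sequences. The upstream exclusive exon belonged to 7 of the 23 coding transcripts and the downstream one to 14, and no transcript held both.

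Since all 10 members moved together, the 250 bases before the transcription start were read for those with a RefSeq window near the start of their most abundant transcript (GRCm38.p6, at most 150 bases away), which left 7 windows of 6 members. The window of slow Tnnc1 at chr14:31208062-31208311 (plus strand) and that of fast Mylpf at chr7:127211358-127211607 (plus strand) are shown as a slow and a fast example whose start matched GENCODE's exactly and which overlap no annotated exon of the gene. Capitals mark matches on either strand to CANNTG (the E-box, read by myogenic factors), CATTCC (the MCAT element), TATAAA, the CArG box and the MEF2 consensus.
Tnnc1 (slow troponin C): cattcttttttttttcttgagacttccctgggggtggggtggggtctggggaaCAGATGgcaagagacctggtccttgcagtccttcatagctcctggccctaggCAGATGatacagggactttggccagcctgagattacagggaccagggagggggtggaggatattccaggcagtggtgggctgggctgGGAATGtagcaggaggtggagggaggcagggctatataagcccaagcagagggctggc
Mylpf (fast regulatory light chain): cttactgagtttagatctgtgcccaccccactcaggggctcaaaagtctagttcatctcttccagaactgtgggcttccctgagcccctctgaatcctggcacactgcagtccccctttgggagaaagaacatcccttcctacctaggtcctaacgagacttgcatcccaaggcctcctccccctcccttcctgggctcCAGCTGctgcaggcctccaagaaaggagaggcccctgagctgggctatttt
An E-box stood in 7 of the 7 windows, overlapping windows of Tnni1 among them, and in 66.2% of the 32851 RefSeq promoters read the same way. Apart from those of Tnnc1 and Mylpf, the windows held 19 to 100 bases of annotated exons. The MCAT letters stood in the windows of Tnnc1 and Myl3 (12.6% of all promoters), a CArG box in that of Myl3 (1.47%) and TATAAA in that of Tnnt1 (12.4%). The MEF2 consensus was in none of the 7 windows and in 2.92% of all promoters. These matches describe letters only.

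All 10 members fell at the tenotomy site relative to the contralateral tendon, by 7.70-fold (Myl1) to 23.6-fold (Myl2), beside 15.4% of all features tested that fell. The slow members had log2 fold changes of −3.77 to −4.56 and the fast members −2.94 to −3.45, so no fast member fell as far as the slow member that fell least. In bulk tissue, fewer muscle fibres and less RNA per fibre cannot be told apart. Every tenotomy library lay below every contralateral library for all 10 members, as it did for 31.8% of all features. Values per gene follow as CPM (counts scaled to a common library total, with TMM scaling), by subunit.

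**Figure D1:**
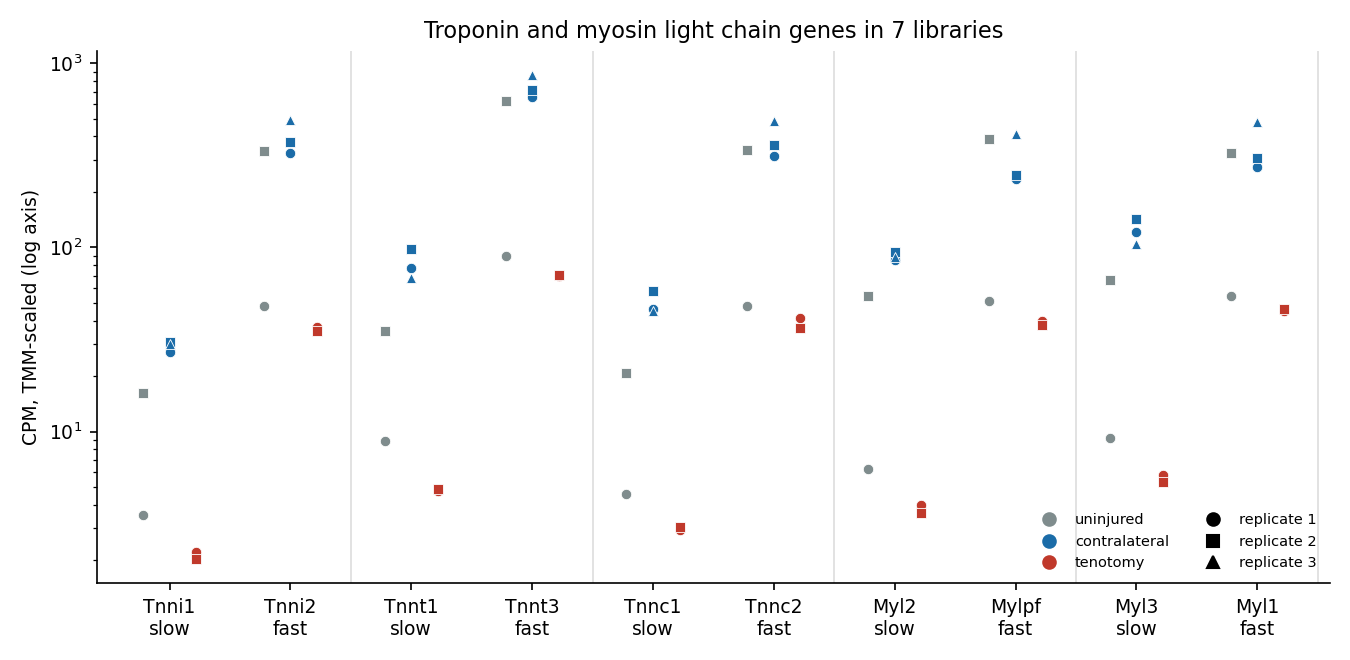
CPM (log axis) of each member in the 7 libraries, with slow and fast partners side by side, colours for groups and symbols for replicates. The tenotomy points lie below all contralateral and uninjured points for each gene, and uninjured 1 lies close to them. Uninjured 2 lies within or near the contralateral points for the fast genes and below all of them for the slow genes.

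Troponin C is the calcium sensor of the complex. The slow gene Tnnc1 (ENSMUSG00000091898.8, chr14:31208312-31211729) stood at 46.5, 57.7 and 45.1 CPM in the contralateral libraries, at 2.91 and 3.03 in the tenotomy libraries, and at 4.60 and 20.9 in uninjured 1 and 2. The fast gene Tnnc2 (ENSMUSG00000017300.9, chr2:164777161-164779967) stood at 315, 360.3 and 485 CPM contralaterally, at 41.5 and 36.5 at the tenotomy site, and at 48.1 and 339 in the uninjured libraries. For both genes the tenotomy libraries were the lowest of the 7, and contralateral 3 had the highest fast value but the lowest slow value of the contralateral libraries. Tnnc1 fell by 4.06 in log2 units (SE 0.62, edgeR adjusted p = 0.0167) and Tnnc2 fell by 3.31 (SE 0.77, adjusted p = 0.0203). The part of Tnnc1 counts in protein-coding transcripts was 96.2% to 97.6% in the contralateral libraries, 80.4% and 77.7% at the tenotomy site, and 81.7% and 96.6% in uninjured 1 and 2.

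Troponin I is the inhibitory subunit. The slow gene Tnni1 (ENSMUSG00000026418.16, chr1:135779434-135810989) was the lowest member, at 26.9, 30.8 and 29.8 CPM contralaterally, 2.23 and 2.03 at the tenotomy site, and 3.52 and 16.3 in the uninjured libraries. The fast gene Tnni2 (ENSMUSG00000031097.15, chr7:142441808-142444410) stood at 324, 373 and 489.9 CPM contralaterally, at 37.2 and 35.2 at the tenotomy site, and at 48.0 and 334 in the uninjured libraries. Uninjured 2 fell within the contralateral range for Tnni2 and below it for Tnni1. The changes between tenotomy and contralateral were −3.77 for Tnni1 (SE 0.61, edgeR adjusted p = 0.0167) and −3.45 for Tnni2 (SE 0.77, adjusted p = 0.0185).

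Troponin T anchors the complex. Slow Tnnt1 (ENSMUSG00000064179.13, chr7:4504570-4516382) stood at 77.5, 98.3 and 67.9 CPM contralaterally, at 4.73 and 4.90 at the tenotomy site, and at 8.84 and 35.2 in the uninjured libraries. Fast Tnnt3 (ENSMUSG00000061723.18, chr7:142498836-142516009), the most abundant member, stood at 653, 712 and 863 CPM contralaterally, at 69.9 and 71.2 at the tenotomy site, and at 89.5 and 624 in the uninjured libraries. No contralateral library of either gene reached down to any other group. Tnnt1 fell by 4.08 in log2 units (SE 0.59, edgeR adjusted p = 0.0167), and Tnnt3 fell by 3.40 (SE 0.76, adjusted p = 0.0188).

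The regulatory light chain is the one that myosin light chain kinase phosphorylates. Slow Myl2 (ENSMUSG00000013936.12, chr5:122100951-122113472), which the heart ventricle also uses, stood at 85.9, 94.8 and 89.0 CPM contralaterally, at 3.97 and 3.63 at the tenotomy site, and at 6.25 and 54.3 in the uninjured libraries. Fast Mylpf (ENSMUSG00000030672.12, chr7:127208890-127214298) stood at 236, 249 and 410.2 CPM contralaterally, at 39.7 and 37.7 at the tenotomy site, and at 51.1 and 389 in the uninjured libraries. Here uninjured 2 exceeded 2 of the 3 contralateral libraries for Mylpf and lay below all 3 for Myl2. Myl2 fell by 4.56 in log2 units (SE 0.86, edgeR adjusted p = 0.0167), the largest change among the members, and Mylpf fell by 2.95 (SE 0.79, adjusted p = 0.0300).

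The essential light chain stiffens the lever arm. Slow Myl3 (ENSMUSG00000059741.13, chr9:110741861-110769798), also a heart gene, stood at 121, 142 and 105 CPM contralaterally, at 5.79 and 5.33 at the tenotomy site, and at 9.27 and 66.3 in the uninjured libraries. Fast Myl1 (ENSMUSG00000061816.15, chr1:66924295-66945404) stood at 272, 307 and 478 CPM contralaterally, at 45.3 and 46.3 at the tenotomy site, and at 54.5 and 324 in the uninjured libraries. The slow gene again had its lowest contralateral value, and the fast gene its highest, in contralateral 3. Myl3 fell by 4.46 in log2 units (SE 0.80, edgeR adjusted p = 0.0167) and Myl1 fell by 2.94 (SE 0.72, adjusted p = 0.0226).

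The fit of all 7 libraries called none of the 10 members once any contralateral or any tenotomy library was left out, although all 10 kept log2 fold changes between −2.65 and −4.63. Their adjusted p then ran from 0.0501 to 0.172, with no feature of the table called. All 10 were called with only the 2 groups compared in the fit (24.1% of features fell), without uninjured 1 (22.0%) and without uninjured 2 (22.3%). The SE of each change rests on a spread shared by all 3 groups, the far-apart uninjured libraries included. Member SE ran from 0.593 to 0.857 in the fit of all 7 libraries and from 0.122 to 0.217 with only the 2 groups compared. Within the first range of sample numbers, tenotomy 1 lay 2.86 to 4.48 below the contralateral mean on the log2 CPM scale. The median difference was −3.53.

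**Figure D2:**
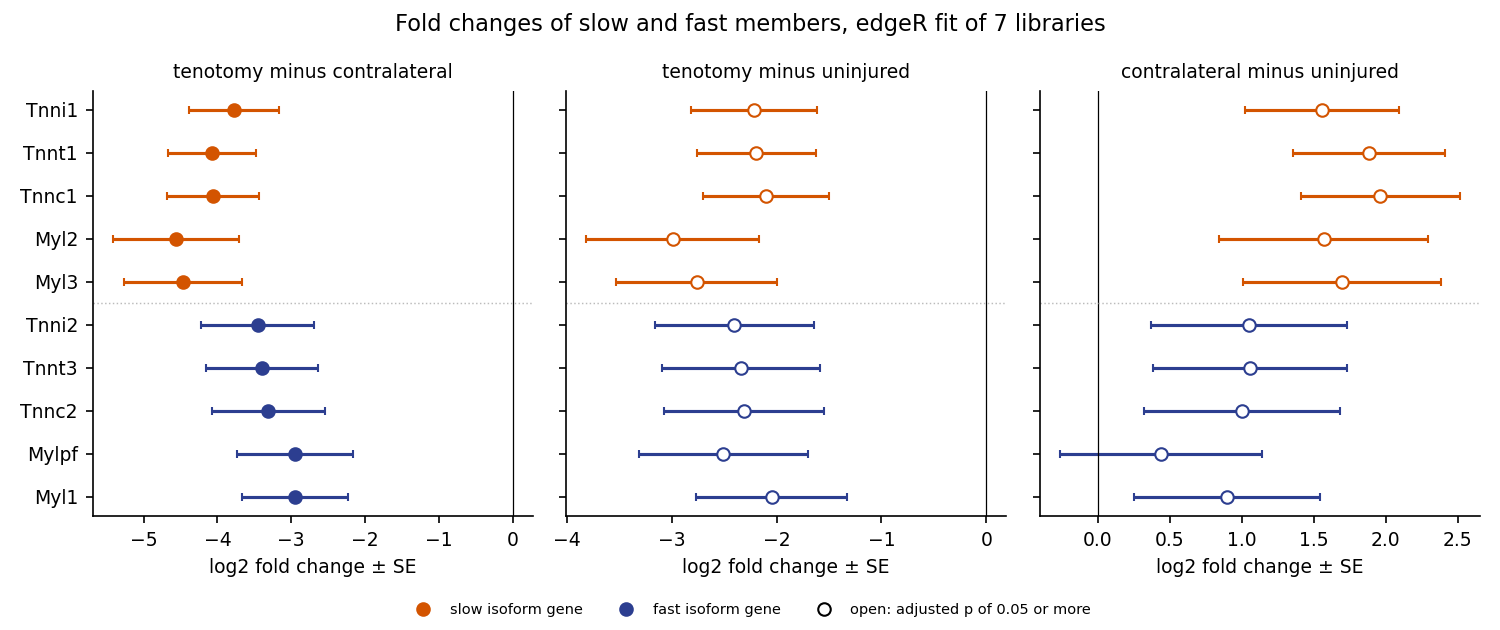
Log2 fold changes of the 10 members with their standard errors in 3 comparisons from the edgeR fit of 7 libraries, slow members above and fast members below the dotted line, each panel with its own axis. Filled points (adjusted p under 0.05) occur in the tenotomy and contralateral panel, where slow members lie between −3.77 and −4.56 and fast members between −2.94 and −3.45.

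The median log2 fold change between tenotomy and contralateral was −4.08 over the 5 slow members and −3.31 over the 5 fast members, 0.76 lower for the slow ones, beside −0.00121 over all features tested. No test is given for this difference, since members share their libraries and are not replicates. It held its sign in each of the 9 other settings and without each of the 7 libraries, between −0.59 and −1.07.

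Levels of different genes were set side by side as TPM, transcript abundances that account for length. In the contralateral tendon the order was Tnnt3 at 139.6 ± 5.59 TPM (SD, n = 3), Tnnc2 at 121 ± 11.7, Tnni2 at 116 ± 10.3, Myl1 at 92.8 ± 15.2 and Mylpf at 81.3 ± 14.5, then Myl2 at 31.6 ± 4.69, Myl3 at 25.8 ± 6.72, Tnnt1 at 16.8 ± 4.74, Tnnc1 at 15.4 ± 3.57 and Tnni1 at 4.90 ± 0.649. All fast members stood above all slow members. Neighbours in this order had separate ranges only between Tnnt3 and Tnnc2, between Mylpf and Myl2 and between Tnnc1 and Tnni1. At the tenotomy site the fast members stood between 10.05 ± 0.238 (Tnni2) and 13.1 ± 1.26 TPM (Tnnt3, n = 2), and the slow members between 0.340 ± 0.0147 (Tnni1) and 1.23 ± 0.0163 TPM (Myl2). The gap between fast and slow genes held there, as the lowest fast member, Tnni2, did not overlap with Myl2. In uninjured 1 the fast members ran from 15.2 (Tnni2) to 18.8 TPM (Tnnt3) and the slow members from 0.631 (Tnni1) to 2.27 (Myl2). In uninjured 2 they ran from 87.3 (Myl1) to 119.6 (Tnnt3) and from 2.76 (Tnni1) to 19.0 (Myl2).

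Slow genes supplied 16.3%, 17.1% and 10.8% of the summed TPM of the members in the contralateral libraries, 7.41% and 7.42% at the tenotomy site, and 9.47% and 8.56% in the uninjured libraries. The tenotomy libraries were the lowest of the 7 and nearly equal to each other, and both uninjured libraries lay below all contralateral ones.

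Slow shares differed most between groups for the light chains. The slow share of the regulatory light chain pair (Myl2 of Myl2 plus Mylpf, in TPM) was 31.2%, 32.5% and 21.4% contralaterally, 11.2% and 10.6% at the tenotomy site, and 12.8% and 14.8% in uninjured 1 and 2. The share of Myl3 in the essential light chain pair was 25.2%, 26.4% and 14.4% contralaterally, 8.87% and 8.41% at the tenotomy site, and 11.5% and 13.7% in the uninjured libraries. For both light chains the 3 groups did not overlap, with contralateral highest and tenotomy lowest.

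The troponins had smaller slow shares and smaller differences. Tnnt1 made up 11.5%, 12.7% and 7.78% of the troponin T pair contralaterally, 7.05% and 6.85% at the tenotomy site, and 9.80% and 5.57% in uninjured 1 and 2. Tnnc1 made up 12.4%, 13.3% and 8.22% of the troponin C pair contralaterally, 6.43% and 7.60% at the tenotomy site, and 8.60% and 5.61% in uninjured 1 and 2. Tnni1 made up 4.46%, 4.46% and 3.32% of the troponin I pair contralaterally, 3.23% and 3.31% at the tenotomy site, and 3.99% and 2.69% in uninjured 1 and 2. In each troponin pair the uninjured libraries enclosed both tenotomy values, and contralateral 3 came close to the tenotomy site. From protein-coding transcripts alone this enclosure failed for troponin C. There tenotomy 1, at 5.12%, lay below uninjured 1 and 2, at 6.97% and 5.39%.

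As mean log2 ratios of slow to fast TPM, the pairs differed between tenotomy and contralateral by −0.32 for troponin I, −0.65 for troponin T, −0.73 for troponin C, −1.53 for the essential and −1.68 for the regulatory light chain. The groups did not overlap in any of the 5 pairs. The exact two-sided permutation test gave p = 0.2 in each, the smallest that 3 against 2 libraries allow, and 0.429 after adjustment over the 15 tests of 5 pairs in 3 comparisons. This design could not pass 0.05. Between tenotomy and uninjured the light chain ratios differed by −0.39 (regulatory) and −0.60 (essential) without overlap, each with the smallest exact permutation p of 0.333 (0.5 adjusted), and the troponin ratios overlapped. Between contralateral and uninjured they differed by 1.28 and 0.93 without overlap (exact permutation p = 0.2, 0.429 adjusted), and the 3 troponin ratios, higher by 0.32 to 0.74, overlapped.

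**Figure D3:**
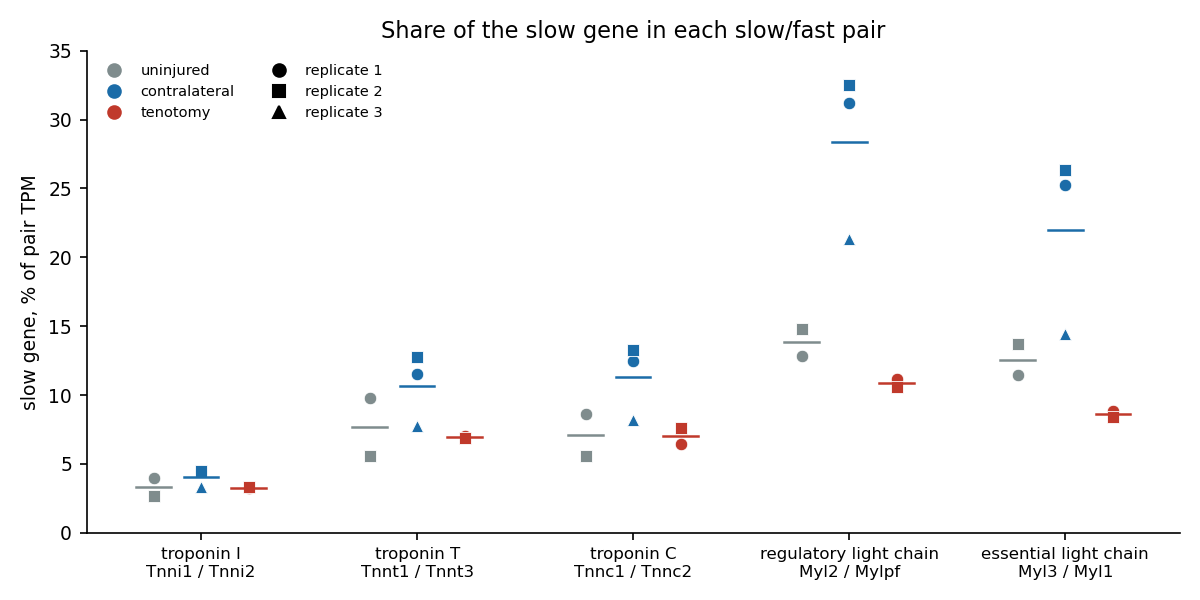
Share of the slow gene in the summed TPM of each slow and fast pair, in percent, by library, with group means as short lines. The regulatory and essential light chains separate the 3 groups, with contralateral at 14.4% to 32.5% and tenotomy at 8.41% to 11.2%, and the uninjured libraries of the troponin pairs enclose the tenotomy values.

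Subunit totals kept similar proportions in all libraries. Summed slow and fast TPM of troponin T was 1.18 to 1.42 times that of troponin I, and troponin C was 1.12 to 1.24 times troponin I. The regulatory light chains were 0.870 to 1.27 times the essential ones, with the highest value in uninjured 2.

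Against the uninjured tendon, all 10 members were lower at the tenotomy site, with log2 fold changes from −2.05 (Myl1, SE 0.72) to −2.99 (Myl2, SE 0.82), and none passed the threshold (edgeR adjusted p = 0.45 for each), beside 0.00% of all features that fell. All 10 had an unadjusted p under 0.05, as did 7.59% of features in this direction, and every tenotomy library lay below both uninjured libraries (20.4% of features). DESeq2 called all 10 lower, beside 4.70% of the features it gave an adjusted p, and limma-voom called none. Without uninjured 1 all 10 were called with changes of −2.81 to −3.83 (13.7% of features fell), and without uninjured 2 none was called, with changes of −0.25 to −0.87 (0.0237%). Within the second range of sample numbers, tenotomy 2 lay 0.24 to 0.84 below uninjured 1 on the log2 CPM scale.

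Slow and fast members gave similar values in this comparison. Their medians were −2.21 and −2.34, so the slow median was 0.13 higher, and this sign turned without uninjured 2 (−0.38), with limma-voom (−0.14) and with the sample number range as a covariate (−0.39). Uninjured 1 exceeded the tenotomy mean by a median log2 CPM of 0.71 for slow and 0.34 for fast members.

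The contralateral tendon against the uninjured tendon asked whether members differed in an uncut limb of burned mice. All 10 had higher fitted means contralaterally, the slow members by 1.56 (Tnni1, SE 0.53) to 1.96 (Tnnc1, SE 0.55) and the fast members by 0.44 (Mylpf, SE 0.70) to 1.06 (Tnnt3, SE 0.67) on the log2 scale. None passed the threshold (edgeR adjusted p from 0.215 to 0.748), beside 0.00% of all features called higher. The slow median was 0.70 above the fast median, which held its sign without each library (0.43 to 1.00) and was not tested. Tnni1, Tnnt1, Tnnc1 and Myl3 had an unadjusted p under 0.05 (8.72% of features in this direction). All 5 slow members and Tnnt3 had every contralateral library above both uninjured libraries, as did 18.9% of features.

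DESeq2 called Tnnt1 (adjusted p = 0.0119) and Tnnc1 (adjusted p = 0.0123) higher contralaterally, beside 1.27% of its features, and limma-voom called none. Without uninjured 1 the 5 slow members were called higher, with log2 fold changes of 0.73 to 1.25, beside 0.306% of features, and no fast member was called, with changes from −0.38 (Mylpf) to 0.25. Without uninjured 2 all 10 were called higher, by 2.55 to 3.85, beside 16.9% of features. Uninjured 2 lay below the contralateral mean by a median log2 CPM difference of −0.88 for slow members and −0.17 for fast members, with Mylpf 0.43 above it.

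Tnnt3 transcript shares differed between groups along the 3 exons shown above. Transcripts with the 15-base exon made up 33.4%, 39.4% and 27.6% of the coding counts of Tnnt3 contralaterally, 13.0% and 12.3% at the tenotomy site, and 14.0% and 26.1% in uninjured 1 and 2. The upstream exclusive exon was in 24.2%, 21.9% and 24.1% of the counts with either exclusive exon contralaterally, in 30.5% and 34.7% at the tenotomy site, and in 30.7% and 23.0% in uninjured 1 and 2. In both shares tenotomy and contralateral libraries did not overlap, and uninjured 1 stood with or next to the tenotomy libraries. Uninjured 2 lay below all contralateral libraries for the 15-base exon and within their range for the upstream exclusive exon.

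Other optional exons lay upstream of these in Tnnt3. A 12-base exon at chr7:142505288-142505299 was in 75.4%, 72.2% and 81.5% of the coding counts contralaterally, in 94.8% and 94.8% at the tenotomy site, and in 89.9% and 83.1% in uninjured 1 and 2. An 18-base exon at chr7:142502740-142502757 was in 48.6% to 58.4% contralaterally, in 38.4% and 42.8% at the tenotomy site, and in 42.2% and 46.6% in uninjured 1 and 2. Another 15-base exon, at chr7:142504250-142504264, was in 96.5% to 98.6% of the coding counts in all 7 libraries. The 12-base exon thus stood higher, and the 18-base exon lower, in both tenotomy libraries than in any contralateral library. The same held for both uninjured libraries.

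Single Tnnt3 transcripts moved with these shares. Tnnt3-216, which has the 15-base and the downstream exon, held 20.9%, 23.8% and 14.4% of the coding counts contralaterally, 3.15% and 3.28% at the tenotomy site, and 7.39% and 13.8% in the uninjured libraries. Tnnt3-201, which lacks the 15-base exon, held 40.8% to 50.4% contralaterally, 60.4% and 56.2% at the tenotomy site, and 56.7% and 52.7% in uninjured 1 and 2. Tnnt3 coding counts were 17298 to 27751 in the contralateral libraries and 2548 and 2087 at the tenotomy site. The estimated counts divide reads among near-identical transcripts, which adds an uncertainty that the files do not give, and no test was made of these shares.

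Myl1 makes a long and a short essential light chain from separate starts. Myl1-201 encodes 188 codons with its stop left out, and Myl1-202 encodes 150. The long form took 10.6%, 10.1% and 10.5% of the counts of both forms contralaterally, 8.17% and 8.50% at the tenotomy site, and 8.92% and 11.5% in uninjured 1 and 2. Tenotomy libraries lay below all others, and the short form was the main one in every library.

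**Figure D4:**
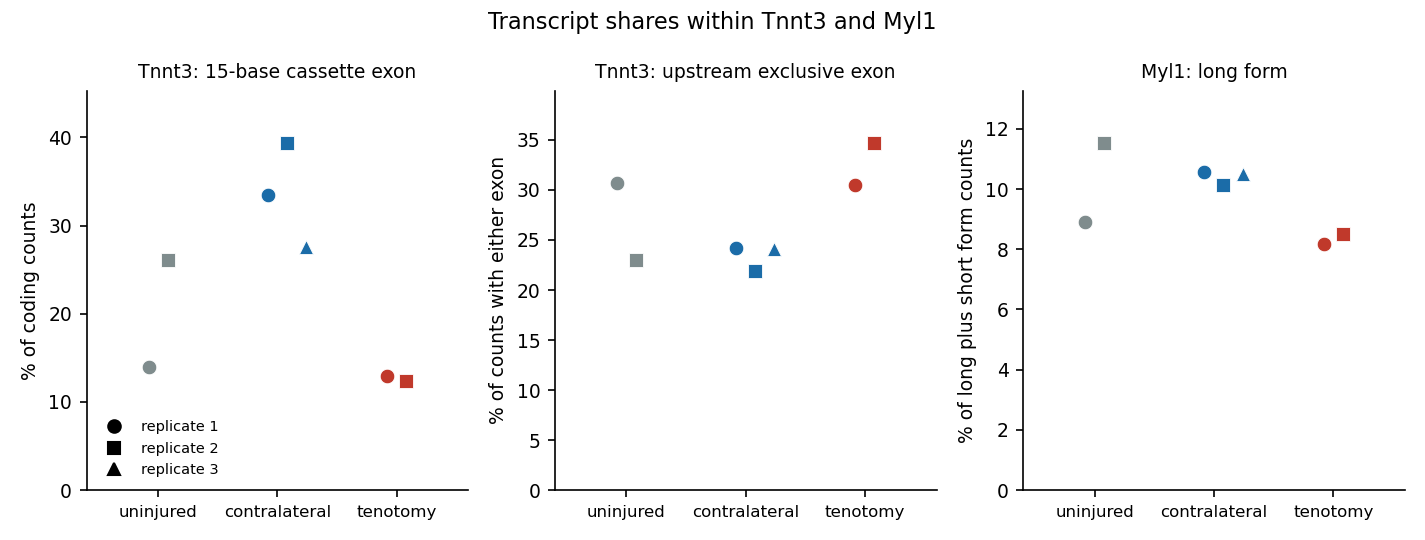
Transcript shares in percent by library: Tnnt3 coding counts with the 15-base exon, Tnnt3 counts with the upstream of its exclusive exons, and Myl1 counts of the long form, each axis starting at 0. The tenotomy libraries hold 13.0% and 12.3% with the 15-base exon against 27.6% to 39.4% contralaterally, and uninjured 1 lies near them at 14.0%.

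Markers of muscle moved with the members. The 12 skeletal muscle markers, among them Acta1, Ckm and the adult myosin heavy chains, summed to 22453 to 23837 CPM contralaterally, 1795 and 1808 at the tenotomy site, and 2304 and 15622 in uninjured 1 and 2, and 12 of 12 fell between tenotomy and contralateral. Of the 8 tendon markers 5 rose, and they summed to 863 to 1199 CPM contralaterally, 4739 to 4754 at the tenotomy site and 3939 to 4369 in the uninjured libraries. Col1a1 and Col1a2 carried most of that sum, and the other 6 summed to 153 to 252 CPM contralaterally, 318 to 322 at the tenotomy site and 236 to 300.2 in the uninjured libraries. The 6 macrophage markers summed to 16.6 to 22.3 CPM contralaterally, 82.0 to 85.9 at the tenotomy site, and 21.5 to 86.9 in the uninjured libraries. Smooth muscle and fat markers fell with the members, 4 of 5 and 2 of 5. Smooth muscle markers summed to 112 to 142 CPM contralaterally, 49.3 in both tenotomy libraries, and 59.1 to 85.7 in the uninjured libraries. Fat markers summed to 154 to 209.5 CPM contralaterally, 78.5 in both tenotomy libraries, and 77.7 to 212 in the uninjured libraries. Of the blood markers 2 of 5 rose, of the nerve and Schwann cell markers 2 of 5 rose, and of the endothelial markers 1 of 4 fell. The part of these markers in the members' differences was not tested.

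Relative to the summed skeletal muscle markers, slow members were lower and fast members higher at the tenotomy site than contralaterally, but this depended on the marker. Slow members took 1.59, 1.85 and 1.41 CPM per 100 CPM of muscle markers contralaterally, 1.09 and 1.05 at the tenotomy site, and 1.41 and 1.24 in the uninjured libraries. Fast members took 8.02, 8.74 and 11.4 contralaterally, 13.0 and 12.5 at the tenotomy site, and 12.6 and 12.9 in the uninjured libraries. Tenotomy libraries lay below all contralateral libraries for the slow members and above them for the fast members, and no test was made of these ratios. The marker list itself holds slow and fast heavy chains, and Ttn, the giant sarcomere spring protein, made up 51.9% to 60.0% of its sum. Without Ttn slow members took 3.11 to 4.39 contralaterally and 2.33 and 2.23 at the tenotomy site, and fast members 20.0 to 25.2 and 27.7 and 26.7. Against Ckm alone the fast members overlapped, at 3.69 to 4.13 times its CPM contralaterally and 3.71 and 3.69 at the tenotomy site. The slow members did not, at 0.510 to 0.787 times contralaterally and 0.312 and 0.308 at the tenotomy site. Against Acta1 alone the slow members overlapped, at 0.208 to 0.286 times its CPM contralaterally and 0.240 and 0.238 at the tenotomy site. The fast members did not, at 1.35 to 1.68 times contralaterally and 2.86 in both tenotomy libraries. Of the 6 heart muscle markers, Myl7, the atrial light chain, had 0 counts in every library, and Tnni3 had 2 to 9 counts. The list summed to 5.75 to 7.29 CPM contralaterally, 1.03 to 1.31 at the tenotomy site, and 1.33 and 12.1 in the uninjured libraries. Actc1 carried most of that sum in the contralateral and uninjured libraries. It stood at 4.82 to 5.49 CPM contralaterally, 0.490 and 0.367 at the tenotomy site, and 0.826 and 11.5 in uninjured 1 and 2.

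Relatives of the members moved in both directions. Of 10 tested light chain and troponin relatives, 6 fell and 1 rose between tenotomy and contralateral, with a median log2 fold change of −1.05. Mylk2, the skeletal muscle light chain kinase, fell by 2.51 (SE 0.53, edgeR adjusted p = 0.017), as did Mylk4 by 2.55 and Myl6b, an essential light chain of slow muscle and other cells, by 2.69. Myl9, a smooth muscle regulatory light chain, fell by 0.97 (SE 0.18, adjusted p = 0.017). The one that rose was Myl12b, a non-muscle regulatory light chain, by 0.75 (adjusted p = 0.028), named after its value was seen. Myl6, the essential light chain of smooth and non-muscle myosin, had 0.46 (adjusted p = 0.078). Myl4, the embryonic and atrial light chain, had −0.77 (adjusted p = 0.24) and Tnnt2, the cardiac and embryonic troponin T, had −0.09 (adjusted p = 0.89), and Tnni3 was too low to be tested.

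Most other sarcomere genes tested fell too. On the thin filament 10 of 11 genes fell between tenotomy and contralateral (median −3.42), led by Lmod3, a leiomodin that nucleates actin, at −4.37 and Acta1, skeletal actin, at −4.19. The exception, Nebl, had 1.17 (adjusted p = 0.064). In the thick filament and M band 11 of 12 fell (median −3.58), with Myh2 at −4.72 and Myom3, an M band protein, at −4.43, and Mybph, a myosin-binding protein, rose by 1.52 (SE 0.21, adjusted p = 0.017). Nebl and Mybph are named after their values were seen. All 12 Z disc genes fell (median −3.48), with Myoz2 at −4.70 and Flnc at −4.07. In the comparisons with the uninjured group no gene of these lists passed the edgeR threshold in the fit of all 7 libraries. This depended on the setting, as genes of some lists were called in other settings or with 1 library left out.

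Other slow fibre genes had a lower median than other fast fibre genes, but unlike the members the 2 lists overlapped, and the difference was not tested. All 10 slow fibre genes fell at the tenotomy site relative to the contralateral tendon (median −3.45), led by Myoz2 and by Ankrd2, a stretch-responsive protein, at −4.63, while Lmcd1 at −2.12 and Tpm3 at −2.63, both named after their values were seen, fell least. All 10 fast fibre genes fell as well (median −2.89), led by Myh2 at −4.72 and Myh1 at −4.08. Among heavy chains, slow Myh7 had −4.36 (SE 0.75), and Myh4, the heavy chain of the fastest fibres, had −2.99 (SE 0.73). Between contralateral and uninjured the medians were 1.59 for slow and 0.77 for fast fibre genes. None passed the threshold in the fit of all 7 libraries, which again depended on the setting. Of 9 tested genes of development and regeneration 3 fell, with Myh3, the embryonic heavy chain, at −5.01 (SE 1.07) and Actc1, cardiac actin, at −3.58 (SE 1.02). Counts at the tenotomy site were very low for Myh3, with 3.11 and 5.00 estimated, and low for Actc1, with 18 and 11. The third gene that fell was Chrna1 at −1.53, and Ncam1 rose by 0.67 (adjusted p = 0.042), both named after their values were seen.

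The genes with patterns most like the members were named by Pearson's r of log2 CPM over the 7 libraries, among 2010 genes with a mean log2 CPM of at least 3. With the mean of the fast members these were Ckm at 0.9993, Ak1 at 0.999, Tpm1 at 0.9989, and Atp2a1 and Ampd1 at 0.9988. With the mean of the slow members they were Myh7 at 0.9992, Myh2 at 0.9991, Usp13 at 0.9987 and Txlnb at 0.9985. The 7 libraries fall into 4 with high and 3 with low summed muscle markers, so these correlations only describe closeness in these libraries, and no p is given.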

How the data were processed

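Each of the 7 libraries had 1 table of 103639 mouse transcripts. The deposited estimated counts are not normalized and the deposited TPM are scaled by effective length and library, per the file headers. The submitters' processing notes name FastQC 0.11.4, kallisto with no version, and the build GRCh38, although every listed transcript has a mouse ID. IDs were matched without version to GENCODE M21 (GRCm38), where 101510 matched, 57625 with the same version. Estimated counts and TPM were summed per gene, the counts were rounded, and the 2129 unmatched transcripts were kept as features.

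Low features were removed with filterByExpr (minimum count 10), and 3 group means were fitted with edgeR 4.0.16 in R 4.3.3 by the quasi-likelihood test with TMM scaling and no covariate. The threshold was an adjusted p of 0.05 (Benjamini-Hochberg). SE is the log2 fold change divided by the root of its F statistic. Alternatives were DESeq2 1.42.0, limma-voom (limma 3.58.1), other scalings and filters, and each library left out. Data were simulated for tenotomy against contralateral (16028 features, 200 changed by 2 on the log2 scale). On these edgeR recovered 157 and called 17 others, and it called 0 where none was changed. DESeq2 recovered 158 and called 31 others, and it called 13 where none was changed. For limma-voom these numbers were 141, 12 and 0. Exact permutation tests used scipy 1.17.1. Precision follows depth: the smallest member count was 61 (Tnni1 at the tenotomy site) and the largest 27920.

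Members and gene lists were chosen with earlier results of these data known. Besides the members, the text names fixed relatives and heavy chains (Tnni3, Tnnt2, Myl4, Myl6, Myl6b, Myl9, Mylk2, Myh1, Myh2, Myh4, Myh7), the 2 genes of largest change in each list, and the 5 genes most like each class in pattern, of which 1 is not reported here. Replicate numbers follow accession order and pair nothing. RefSeq supplied promoter windows for 8 members.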

Additional observations from a re-analysis of the deposited data

How the results depend on the processing

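No paired analysis was possible because the labels give no replicate or animal numbers. All 10 members fell between tenotomy and contralateral in each of 9 other settings. With 1 library left out, the number called ran from 0 to 10, with 0 whenever a contralateral or tenotomy library was missing. Between tenotomy and uninjured 10 members were called with DESeq2, and 0 to 10 with 1 library left out. Between contralateral and uninjured 2 were called with DESeq2 and 2 with no filter, and 0 to 10 with 1 library left out (5 without uninjured 1, 10 without uninjured 2). The cause was not tested. The lone library of a reduced group was assumed to vary like the other groups.

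The slow minus fast difference between tenotomy and uninjured, 0.13 on the log2 scale, turned to −0.14 with limma-voom and −0.39 with the sample number range as covariate, and ran from −0.38 to 0.22 with 1 library left out. That covariate was not run for contralateral against uninjured, since these groups share no range. The log2 fold change of Mylpf between contralateral and uninjured ran from −0.38 (without uninjured 1) to 2.55 (without uninjured 2) with 1 library left out. Upper quartile scaling moved the median of all features between tenotomy and contralateral to 0.113.

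Computed from estimated counts, which are not per length, the slow share of troponin I was 7.01% contralaterally, 5.58% at the tenotomy site and 5.74% in uninjured tendon. For the tenotomy site it was 6.39% for troponin T, 8.94% for the regulatory and 10.8% for the essential light chain, and for uninjured tendon 11.6% and 15.8% for these light chains. From protein-coding transcripts alone, the tenotomy shares were 6.12% for troponin T, 5.48% for troponin C and 9.02% for the essential light chain.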
